A study of Mus musculus with 27 samples.

Results

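The nuclear respiratory chain genes encode the subunits of the mitochondrial respiratory chain that are made in the cytosol and imported. They were taken by symbol: Nduf followed by a, b, c, s or v and a digit, Sdha to Sdhd, and symbols starting with Uqcr, Cox4i, Cox5, Cox6, Cox7, Cox8 or Atp5. Of 105 matching symbols in a table of 50559 genes, 15 pseudogene symbols and 2 symbols with fewer than 10 counts over all libraries were left out, and 88 genes remained. By complex there were 40 genes of complex I, 4 of complex II, 8 of complex III, 19 of complex IV and 17 of complex V. Ndufa4 and Ndufa4l2, which carry a complex I name, were counted with complex IV, where the Ndufa4 protein is now placed. The symbols leave out some subunits, such as Ndufab1 and Cyc1, and include 5 further copies of other members (Ndufb4b, Ndufb4c, Ndufa11b, Ndufs6b and Cox6c2). RefSeq lists Ndufs6b and Cox6c2 as pseudogenes and Ndufa11b as a transcribed pseudogene.

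RNA was sequenced from mouse thyroid gland organoids (mTGOs), 3-dimensional cultures grown in Matrigel from thyroid cells of C57BL/6 mice of 8 to 12 weeks of age, in medium with EGF, FGF2, the ROCK inhibitor Y27632 and B27. Organoids were grown for 5 days and then received 0, 2, 4 or 7 Gy of photons. There were 9 groups of 3 libraries: 0 Gy at days 5, 7 and 11, and 2, 4 and 7 Gy at days 7 and 11, so that all irradiated groups shared the 0 Gy group of their day. Each group held 1 library from each of the cultures mTG11, mTG12 and mTG14, the names that the columns carry, while the labels number the mice without tying a number to a culture.

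Complexes I to IV pass electrons from NADH and succinate to oxygen. Complexes I, III and IV pump protons across the inner mitochondrial membrane as they do so, and complex V, the ATP synthase, uses the gradient to make ATP. Complex II is encoded wholly in the nucleus, while the other complexes also hold subunits from the mitochondrial genome, so that 2 sets of genes have to be expressed for 1 enzyme. In thyroid tissue the chain is best known from oncocytic cells, follicular cells packed with mitochondria.

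Library totals ranged from 2528866 to 5723150 counts, and 3 counts, taken as the smallest amount that can be told from 0, stood for 0.524 to 1.19 CPM (counts per 1000000 counts of the library), which covers counting error only. The 88 genes took 1.17% to 1.81% of the counts of a library. The 9 thyroid markers summed to 35.8 to 145 CPM, and 6 of them reached 10 counts over all libraries. Nkx2-1 and Foxe1 were found in every group, and Slc5a5, the iodide carrier, was at or below 0.285 CPM in every library. Between days 5 and 11 without irradiation, 2 of the 5 markers tested were called higher and 0 lower, with log2 fold changes from -1.70 to 6.92, the highest being that of Duox2, which was at or below 0.855 CPM in the day 5 libraries and at or above 42.6 CPM at day 11. Markers of skeletal muscle, all 7 of them detected, summed to 6.90 to 280 CPM, those of fibroblasts to 5.48 to 148 CPM and those of endothelium to 0 to 1.17 CPM, with Emcn at 0. In bulk RNA, fewer cells of a type and less RNA per cell cannot be told apart.

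Without irradiation, most nuclear respiratory chain genes fell from day 5 to day 11. Of 86 genes tested (2 had too few counts), 58 were lower at day 11, 6 were higher and 22 did not pass, against 41.3% of all 18442 genes called in either direction, 20.1% called lower and 21.3% called higher. The median log2 fold change was -0.49, while that of all genes tested was 0.06. In 68 of the 86 genes every day 11 library was below every day 5 library, which was so for 30.2% of all genes, and in 4 genes every one was above (22.1% of all genes). By complex, 15 of 17 genes of complex V, 7 of 8 of complex III, 2 of 4 of complex II, 24 of 39 of complex I and 10 of 18 of complex IV were lower. The test was edgeR's quasi-likelihood test on counts scaled by TMM, with Benjamini-Hochberg adjustment over all genes and a call at an adjusted p under 0.05. In the same comparison 6 of 7 muscle markers, 5 of 7 fibroblast markers and 12 of 12 proliferation genes were called lower. The summed muscle markers fell by 92.7%, with no overlap between the days, and the summed fibroblast markers went from a mean of 84.1 to 23.5 CPM, with overlap. The summed epithelial markers fell by 57.3% without overlap, though with the culture as a replicate block 4 of 7 were called higher and 2 lower. Summed leukocyte markers rose from a mean of 7.16 to 44.8 CPM, but only 1 of the 5 had enough counts to be tested. That marker was called higher. The thyroid marker sum dipped before it rose, with group means of 60.3, 43.5 and 117 CPM for days 5, 7 and 11 in turn. It includes Duox2, the thyroid marker with the largest rise. With the culture as a replicate block, 2 of 5 thyroid markers were called higher and 1 lower. The part of these markers and of the proliferation genes in the fall was not tested.

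Summed over all 88 genes, the level was 17850 ± 396 CPM (SD, n = 3) at day 5. It was 14583 ± 208 CPM at day 7 and 12288 ± 737 CPM at the last time point. The 3 libraries of day 5 stood at 17398, 18014 and 18137 CPM, those of day 7 at 14796, 14574 and 14380 CPM, and those of day 11 at 12041, 13117 and 11707 CPM. No library of a later day reached the level of an earlier day. The sum was 31.2% lower at day 11 than at day 5, and the sums of the complexes were lower by 45.0% for complex V, 22.7% for complex II and 18.9% for complex I. Complex III went from a mean of 2195 to 1426 CPM and complex IV from 4779 to 3488 CPM. These sums, like the counts of genes without overlap, use library totals without the TMM factors of the tests. Those factors were 1.04 to 1.09 in the day 5 libraries and 0.935 to 0.987 in the day 11 libraries. On the scale of the tests the falls are therefore smaller than these percentages.

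**Figure D1:**
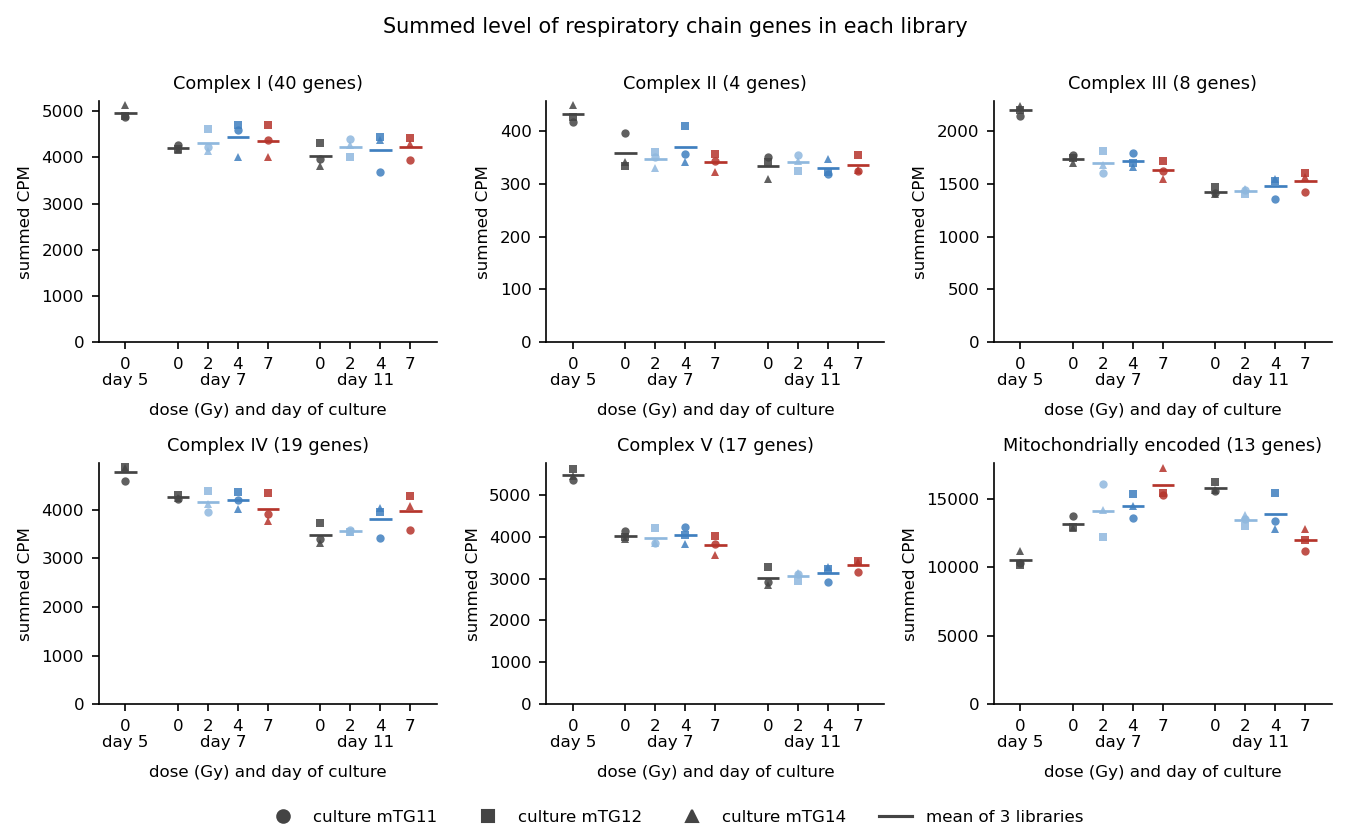
Summed CPM of the nuclear genes of each complex and of the 13 mitochondrially encoded subunits (y axis, from 0) in each of the 27 libraries, by dose in Gy and day of culture (x axis), with 1 point per library, the symbol giving the culture, and a line at the mean of 3 libraries. The nuclear sums are highest at day 5 in every complex, and the mitochondrially encoded sum rises from day 5 to day 11 at 0 Gy and lies between 11190 and 12807 CPM in the 3 libraries at day 11 after 7 Gy.

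The ATP synthase genes fell furthest as a group, with a median log2 fold change of -0.60 and values from -1.21 to -0.23 over its 17 genes. Atp5g1 and Atp5g3, 2 of the 3 genes for the membrane rotor subunit c, were among the 5 largest falls. Atp5g1 (build GRCm39, chromosome 11, 95959678 to 95966757, minus strand) was at 164, 209 and 191 CPM at day 5, 120, 103 and 104 CPM at day 7, and 74.3, 78.3 and 66.9 CPM at day 11. Its libraries were ordered by day with no overlap, and its log2 fold change between day 11 and day 5 was -1.21 (standard error 0.10, adjusted p = 1.40e-06). Atp5g3 (chromosome 2, 73738779 to 73741933, minus strand) went from 577, 608 and 596 CPM to 250, 270 and 231 CPM, which is -1.10 on the log2 scale (standard error 0.08, adjusted p = 4.67e-07). The third gene of that subunit, Atp5g2, changed least of the 3, by -0.34 on the log2 scale, and it too was called lower.

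Atp5k, the gene for subunit e, which helps ATP synthases pair into dimers, occupies bases 108581110 to 108582949 of chromosome 5 (minus strand). It stood at 345, 388 and 380 CPM at day 5 and at 143, 169 and 149 CPM at day 11, or -1.13 on the log2 scale (standard error 0.09, adjusted p = 1.07e-06). Atp5o, the gene for the oligomycin sensitivity conferring protein in the stalk, went from 300, 308 and 281 CPM to 128, 138 and 120 CPM (-1.06, standard error 0.08, adjusted p = 9.53e-07). Of the catalytic head, the beta subunit gene Atp5b changed by -0.95 and the alpha subunit gene Atp5a1 by -0.58, both called lower, while Atp5c1 (gamma, -0.23) and Atp5e (epsilon, -0.26) did not pass. With the culture as a replicate block, Atp5e was also called lower (adjusted p = 0.0236). Atpif1, the inhibitor of the ATP synthase, which the symbols above do not cover, was higher at day 11 by 0.30 (standard error 0.08, adjusted p = 0.00715).

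The promoters of these genes were searched for letters that nuclear factors of the respiratory chain are known to read: the NRF1 core GCGCATGCG, the ETS site CCGGAAGT bound by the GABP complex, and the YY1 site AAGATGGCG. Windows from 250 bases before to 50 bases after the start site came from RefSeq (build GRCm38.p6, on both strands), and 69 of the 88 genes had one. At least 1 motif was in the windows of 19 of these 69 genes (27.5%), against 7.48% of all 27025 genes with a window. The NRF1 core was in 11.6% against 1.95%, the ETS site in 7.25% against 4.31% and the YY1 site in 10.1% against 1.64%. These shares describe letters in a window and carry no test. The following stretches belong to 6 genes described here, 5′ to 3′ on the strand of the gene, with the motif in capitals. In both NRF1 stretches the 10 capitals hold the core on each strand, shifted by 1 base.
Atp5k, NRF1 core, chr5:108434405-108434484, minus strand: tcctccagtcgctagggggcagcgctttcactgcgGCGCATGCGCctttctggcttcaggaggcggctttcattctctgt
Cox6a1, NRF1 core, chr5:115349076-115349155, minus strand: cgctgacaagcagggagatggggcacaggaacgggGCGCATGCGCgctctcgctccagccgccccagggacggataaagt
Uqcrh, ETS site on the other strand, chr4:116075071-116075116, minus strand: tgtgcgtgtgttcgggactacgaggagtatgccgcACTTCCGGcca
Ndufs3, ETS site on the other strand, chr2:90904702-90904731, minus strand: gcacatttccACTTCCGGtccgtgcccttg
Cox8a, first of 2 ETS sites on the other strand, chr19:7217603-7217632, minus strand: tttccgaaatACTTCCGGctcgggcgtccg
Cox8a, second ETS site on the other strand, chr19:7217567-7217596, minus strand: tcagcgccggaACTTCCGGctggttcggcc
Ndufs7, YY1 site, chr10:80249463-80249492, plus strand: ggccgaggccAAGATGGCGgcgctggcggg

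Of the 6 genes shown, Atp5k and Cox6a1, both with an NRF1 core, were lower at day 11 (Cox6a1 by -0.74), Uqcrh with an ETS site was lower by -0.41, Ndufs3 (-0.19) and Cox8a (-0.05) with the same site did not pass, and Ndufs7 with a YY1 site was higher. The NRF1 core was in 8 genes. Of those not printed, Uqcr11, which also holds the ETS site, Uqcrc1 and Atp5g2 were lower as well. Ndufa8 and Atp5l had libraries ordered downward by day at 0 Gy without overlap, and Ndufa11 did not. Of all 86 genes tested, with or without a motif, 58 were lower. The ETS site was in 5 genes. In those not printed, Uqcr11 and Atp5h, the libraries of each day at 0 Gy lay below those of the day before. The YY1 site was in 7 genes, and this order also held for Ndufa9, Ndufc1, Ndufs6, Atp5j and Atp5j2. It did not hold for Ndufs4 and Ndufs7. Among all 88 genes, 39 were ordered in this way. These values are a description of single genes and not a comparison of motifs. The motif of Atp5k begins 50 bases before the start site and that of Cox6a1 162 bases before it, while the site of Ndufs3 begins at the start site itself.

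In complex III, which takes electrons from ubiquinol to cytochrome c, 7 of 8 genes were lower at day 11. Uqcr11 changed by -0.91, the core protein gene Uqcrc1 by -0.80, Uqcrq by -0.69, the Rieske iron-sulfur protein gene Uqcrfs1 by -0.46 and the hinge protein gene Uqcrh by -0.41. Uqcr10, at -0.22, lost its call with the culture as a replicate block (adjusted p = 0.0513). The second core protein gene, Uqcrc2, was the exception, at 153, 182 and 170 CPM at day 5 and 174, 170 and 156 CPM at day 11 (0.13), and its groups overlapped. In complex II, the iron-sulfur subunit gene Sdhb (-0.46) and the membrane anchor gene Sdhd (-0.46) were lower, while the flavoprotein gene Sdha (-0.19) and the other anchor gene Sdhc (0.06) did not pass.

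Complex I, the largest complex, held both falls and rises. Among its catalytic core subunits, Ndufs8 changed by -0.81, Ndufs1 by -0.73, Ndufv1 by -0.61 and Ndufv2 by -0.53, all called lower. Ndufs8, an iron-sulfur subunit, went from 73.8, 81.7 and 85.8 CPM to 41.4, 44.5 and 38.2 CPM. The core subunit gene Ndufs3 did not pass, and Ndufs7 was higher. The largest fall was that of the accessory subunit gene Ndufa1, on the X chromosome, at -0.92, and Ndufa10 (-0.22) lost its call with the replicate block (adjusted p = 0.0503).

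**Figure D2:**
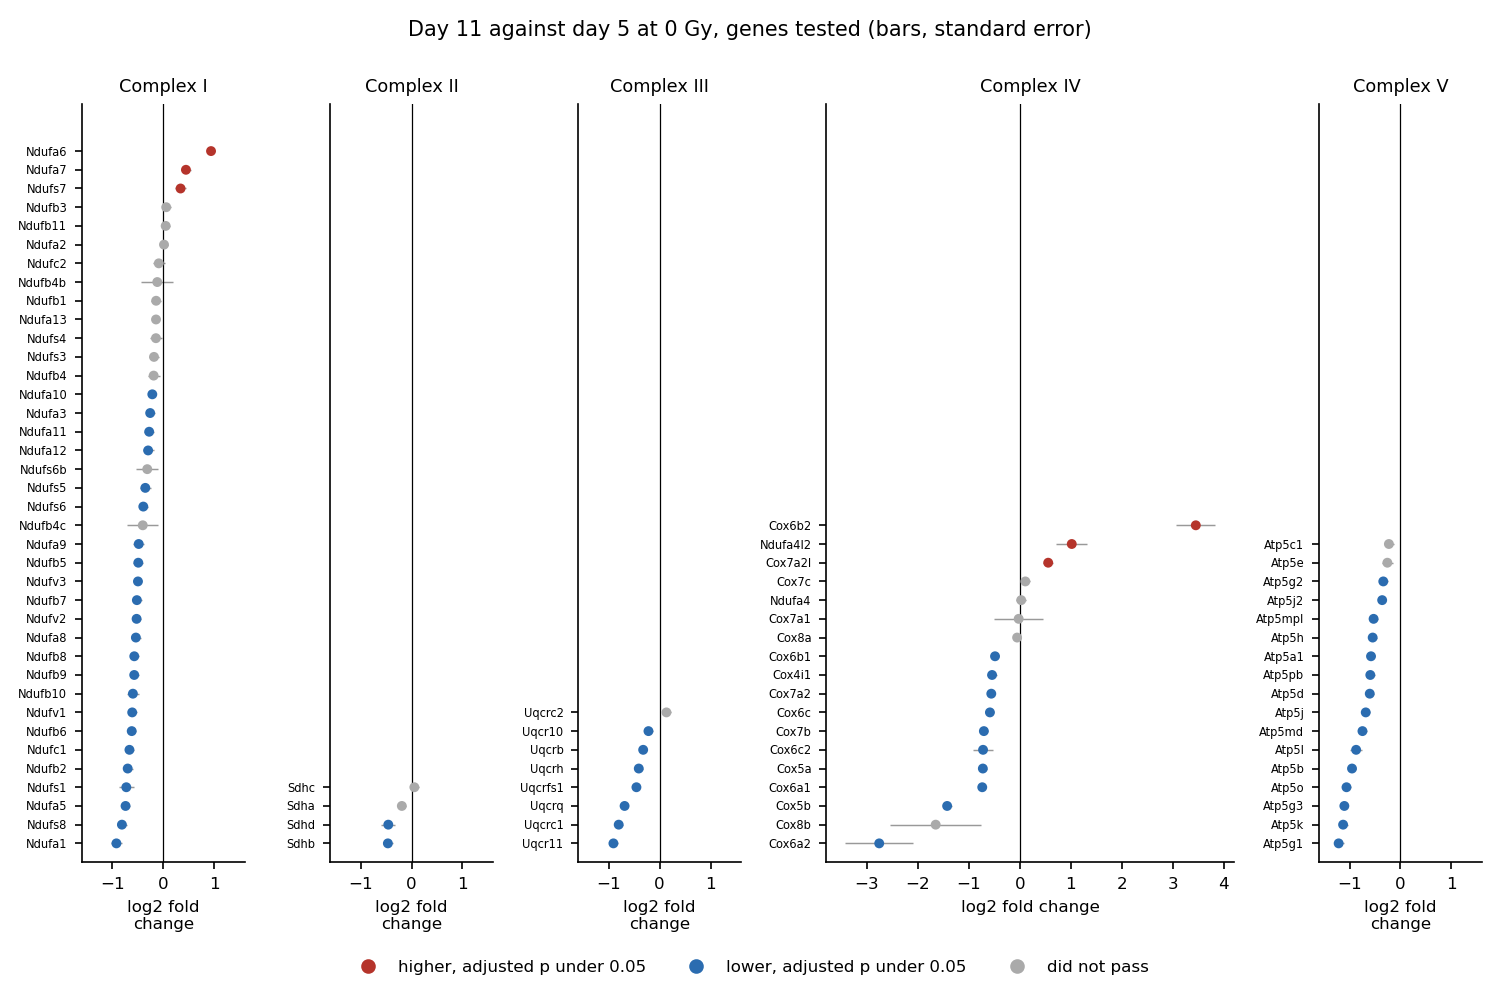
Log2 fold change of the tested genes, but for 1 gene of complex I that is not shown, at day 11 against day 5 without irradiation (x axis, to the same scale in all panels, with bars of 1 standard error), by complex and ordered by value. Blue marks genes called lower, red genes called higher and grey genes that did not pass. All 17 genes of complex V lie below 0, and the 6 higher genes are in complexes I and IV.

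In complex IV, cytochrome c oxidase, Cox5b (chromosome 1, 36730530 to 36734495, plus strand) had the largest fall of the nuclear respiratory chain genes with a mean of 10 CPM or more. It stood at 242, 229 and 221 CPM at day 5, 147, 138 and 134 CPM at day 7, and 86.2, 73.2 and 73.1 CPM at day 11. The 3 days did not overlap, and the log2 fold change from day 5 to day 11 was -1.43 (standard error 0.09, adjusted p = 2.67e-07). Cox6a1 (-0.74), Cox5a (-0.73), Cox7b (-0.71), Cox6c (-0.59), Cox7a2 (-0.56), Cox4i1 (-0.55) and Cox6b1 (-0.49) were lower as well. Cox8a, among the 5 nuclear respiratory chain genes with the most counts, stood at 598, 640 and 660 CPM at day 5 and 553, 576 and 525 CPM at day 11 (-0.05), and Cox7c (0.11) and Ndufa4 (0.03) did not pass either.

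Several complex IV subunits have a second gene used in other tissues. Cox6b2, known from testis, went from 0.345, 0.760 and 1.43 CPM at day 5 to 0.782, 1.33 and 1.29 CPM at day 7, and stood at 10.2, 8.04 and 8.80 CPM on day 11. Days 5 and 7 overlapped near the limit of detection, and day 11 stood above both. The log2 fold change between day 11 and day 5 was 3.45 (standard error 0.38, adjusted p = 1.83e-05), while its partner Cox6b1 fell. Cox6a2, the form of heart and skeletal muscle, was lower, as was its partner Cox6a1, and went from 2.41, 4.94 and 3.14 CPM to 0.476, 0.268 and 0.550 CPM (-2.76, standard error 0.67, adjusted p = 0.00565), the day 11 values being 1 or 2 counts in each library, under the limit of 3. The summed markers of skeletal muscle moved with Cox6a2, from 89.7, 280 and 182 CPM at day 5 to 6.90, 16.3 and 16.9 CPM at day 11, with 6 of 7 called lower, and their part in the change was not tested. The other muscle forms Cox7a1 and Cox8b had means of 2.23 and 0.467 CPM over all libraries and did not pass, and Cox4i2, with a mean of 0.169 CPM, was too low to be tested between these days.

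The 5 largest rises among nuclear respiratory chain genes with a mean of 10 CPM or more were those of Ndufa4l2 (1.02), Ndufa6 (0.93), Cox7a2l (0.56), Ndufa7 (0.44) and Ndufs7 (0.34). Ndufa6, an accessory subunit gene of complex I (chromosome 15, 82234340 to 82238523, minus strand), was at 118, 128 and 125 CPM at day 5, 156, 163 and 168 CPM at day 7, and 225, 225 and 191 CPM at day 11 (standard error 0.09, adjusted p = 4.48e-06). Its days did not overlap. Smdt1 lies over it on the opposite strand, and reads of the pair cannot be told apart if the counting did not use strand.

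Cox7a2l, whose protein helps complexes III and IV join into supercomplexes, rose from 184, 181 and 189 CPM to 240, 283 and 213 CPM (standard error 0.10, adjusted p = 0.000765). Ndufa7 had the most counts of all 88 genes, 782, 746 and 892 CPM at day 5 and 966, 1095 and 916 CPM at day 11 (standard error 0.09, adjusted p = 0.00224). It begins on chromosome 17 of GRCm39 at 34043537, the base after the end of Rps28, which runs from 34034199 to 34043536 on the opposite strand, and 44.4% of its nonzero values were whole numbers. Ndufs7 had 65.8, 64.4 and 76.4 CPM at day 5 and 80.9, 82.8 and 73.3 CPM at day 11, which overlap (standard error 0.10, adjusted p = 0.0168), and its call was lost with DESeq2 (adjusted p = 0.0655) and without TMM factors (adjusted p = 0.190). Gamt overlaps it on the opposite strand.

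**Figure D3:**
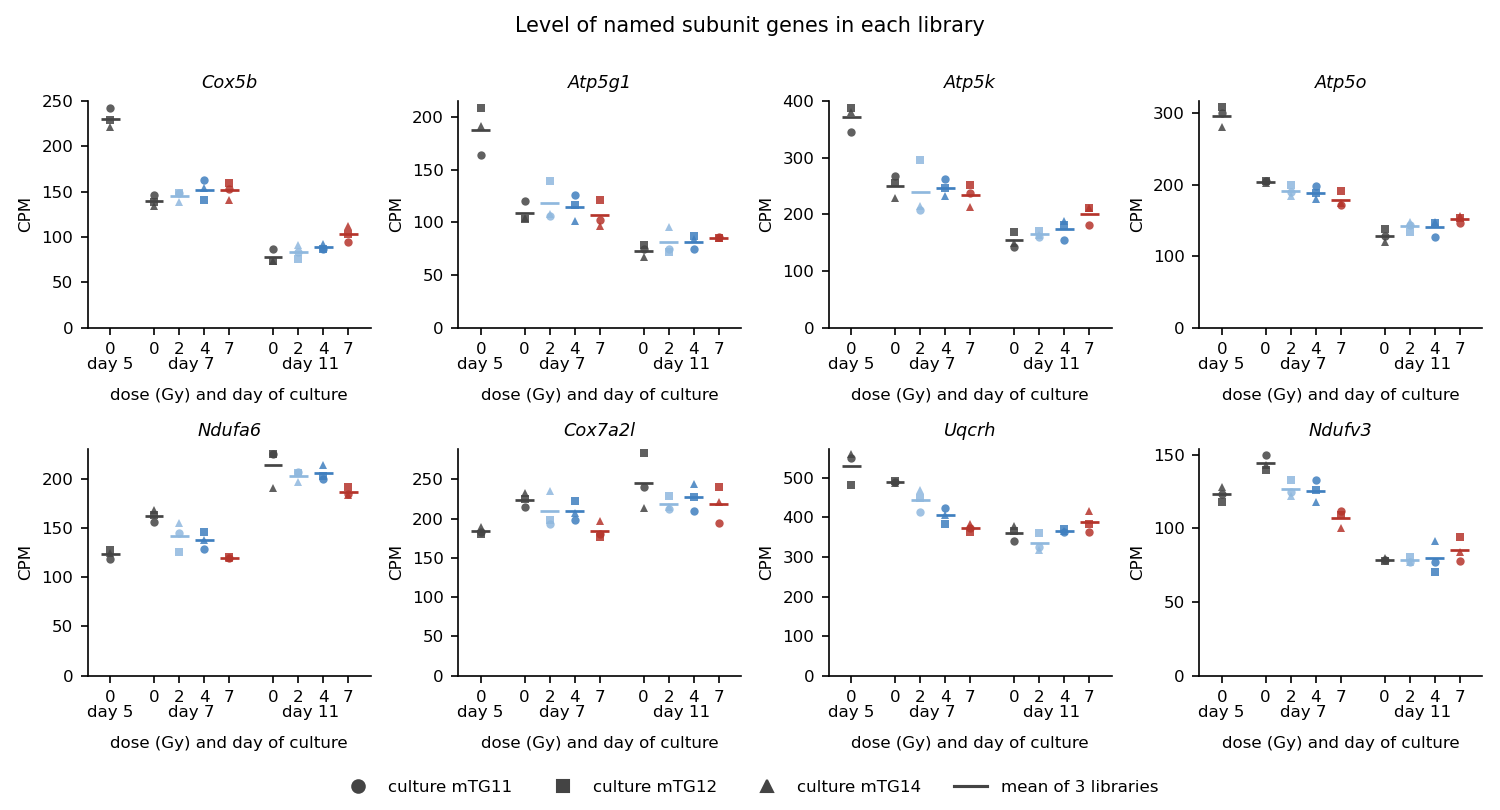
CPM of 8 subunit genes (y axis, from 0) in each library by dose in Gy and day of culture (x axis), with 1 point per library, the symbol giving the culture, and a line at the mean of 3 libraries. Cox5b, Atp5g1, Atp5k and Atp5o step down with each day, Ndufa6 steps up, and Uqcrh and Ndufv3 are lower after 7 Gy at day 7.

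How the fall of the summed CPM divided between the intervals differed by complex, though single genes weigh in these sums. Ndufa7, at a mean of 966 CPM over all libraries, is part of the complex I sum and was higher at day 11 than at day 5. Complex I was not summed without it. The complex IV sum holds Ndufa4l2, which was far higher at day 7. The summed CPM of complex I fell by 15.4% to day 7, without overlap, and by 4.16% from then to day 11, with overlap. That of complex II fell by 17.1% without overlap and then by 6.69% with overlap. The sums of complexes III, IV and V fell without overlap in both intervals. Summed over all 88 genes, the fall was spread over both intervals, at 18.3% and then 15.7%, each without overlap. Without Ndufa7 it was 19.4% and then 17.8%, each without overlap. With the culture as a replicate block, 15 of 39 complex I genes were called lower from day 5 to day 7. From day 7 to day 11 the block called 9 of 39 lower. From day 5 to day 7, 36 genes were lower and 4 higher, against 9.62% of all genes called lower, 12% called higher and 21.6% in either direction, with a median log2 fold change of -0.23. From day 7 to day 11, 34 were lower and 4 higher, against 11.7% of all genes called lower, 9.57% called higher and 21.2% in either direction, with a median of -0.24. The day 7 libraries enter both comparisons. Leaving out library mTG14 at day 5 lowered the first count to 23 calls, and leaving out mTG14 at day 7 lowered it to 26. Ndufv3, a complex I subunit gene near the NADH site, turned between the intervals, from 123, 118 and 128 CPM at day 5 up to 150, 140 and 143 CPM at day 7 (0.38, adjusted p = 0.00562) and down to 78.8, 77.8 and 79.7 CPM at day 11 (-0.88, adjusted p = 1.58e-05).

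Ndufa4l2 had the widest swing of the nuclear respiratory chain genes with a mean of 10 CPM or more (chromosome 10 of GRCm39, 127350818 to 127353038, plus strand, with Shmt2 over it on the opposite strand). The gene is a known target of the hypoxia factor HIF-1, and its protein resembles Ndufa4. It stood at 22.9, 39.2 and 50.6 CPM at day 5, 432, 552 and 513 CPM at day 7, and 50.6, 107 and 51.7 CPM at day 11. The day 7 libraries were all far above those of both other days. The log2 fold change was 3.87 from day 5 to day 7 (standard error 0.30, adjusted p = 8.78e-06) and -2.86 from day 7 to day 11 (standard error 0.28, adjusted p = 2.22e-05). The rise of 1.02 between days 5 and 11 (adjusted p = 0.0167) lost its call without library mTG11 at day 5 (0.77, adjusted p = 0.0636) and without mTG12 at day 11 (0.59, adjusted p = 0.0794). Ndufa4 itself went from 654, 767 and 751 CPM to 455, 503 and 483 CPM at day 7 (-0.44) and back to 656, 632 and 705 CPM at day 11 (0.46 from day 7), both called.

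The mitochondrially encoded subunits went the other way. Their sum was 10552 CPM on average at day 5, 13161 at day 7 and 15774 at day 11 without irradiation, and 8 of 13 were higher and 1 was lower at day 11 than at day 5, with a median log2 fold change of 0.70. Mitochondrial ribosomal RNA took 2.76% to 4.27% of the counts of a library at day 5 and 6.90% to 8.81% at day 11, and its part in the rise was not tested. mt-Co1, the catalytic subunit of complex IV, was higher by 1.58 (standard error 0.09, adjusted p = 1.00e-07), mt-Nd4 by 0.84, mt-Atp6 by 0.71 and mt-Co2 by 0.70. The ratio of the mitochondrially encoded sum to the sum of the 88 nuclear genes was 0.594, 0.565 and 0.615 at day 5, 0.926, 0.886 and 0.895 at day 7, and 1.29, 1.23 and 1.33 at day 11. Its 3 days did not overlap. The libraries were made from polyadenylated RNA, so these levels also rest on the tails of mitochondrial transcripts.

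Other genes around the chain were followed in the same comparison, in which 20.1% of all genes were called lower and 21.3% higher. Of 17 genes of the tricarboxylic acid cycle, which feeds NADH and succinate to the chain, 9 were lower and 1 higher at day 11 than at day 5, with Mdh2 at -0.86, Cs at -0.65, Idh3a at -0.86 and Idh3g at -0.82. Of 51 assembly factor genes, 12 (23.5%) were lower and 7 (13.7%) higher, with Fmc1 (-1.56), Uqcc2 (-0.90) and Cmc2 (-1.91) lower and Cmc1 (0.84) higher. Of 12 transcriptional regulators, 6 were lower and 0 higher, among them Gabpa (-0.58), Pprc1 (-0.49), Ppargc1b (-0.60) and Nrf1 (-0.47). Of 13 respiratory chain genes that the symbols leave out, 5 were lower and 2 higher, with cytochrome c (Cycs) at -1.22 and cytochrome c1 (Cyc1) at -0.95. The summed level of 12 proliferation genes moved with the nuclear respiratory chain genes over the days, with 1283 to 1443 CPM at day 5, 628 to 772 CPM at day 7 and 187 to 207 CPM at day 11.

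At day 7, most genes did not pass the test after any dose. After 2 Gy, 0 of 86 genes passed edgeR's test, against 0.124% of all genes, with 7 at an unadjusted p under 0.05, and DESeq2 called 1. The share of all genes at that unadjusted p was not counted. After 4 Gy, 2 genes were higher and 1 was lower, against 1.63% of all genes (0.972% higher, 0.656% lower). After 7 Gy, 2 were higher and 4 lower, against 6.95% of all genes (3.2% higher, 3.75% lower). A replicate block for the culture gave 1 lower gene after 2 Gy (0.718% of all genes), 2 higher and 2 lower after 4 Gy (5.22%), and 3 higher and 7 lower after 7 Gy (11.4%), the calls added after 7 Gy being Ndufa4 higher and Ndufb11, Cox7a2l and Atp5c1 lower. Median log2 fold changes were -0.04 after 2 Gy and -0.03 after 7 Gy. For the 79 genes with a mean of 10 CPM or more, the median standard error after 7 Gy was 0.09.

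**Figure D4:**
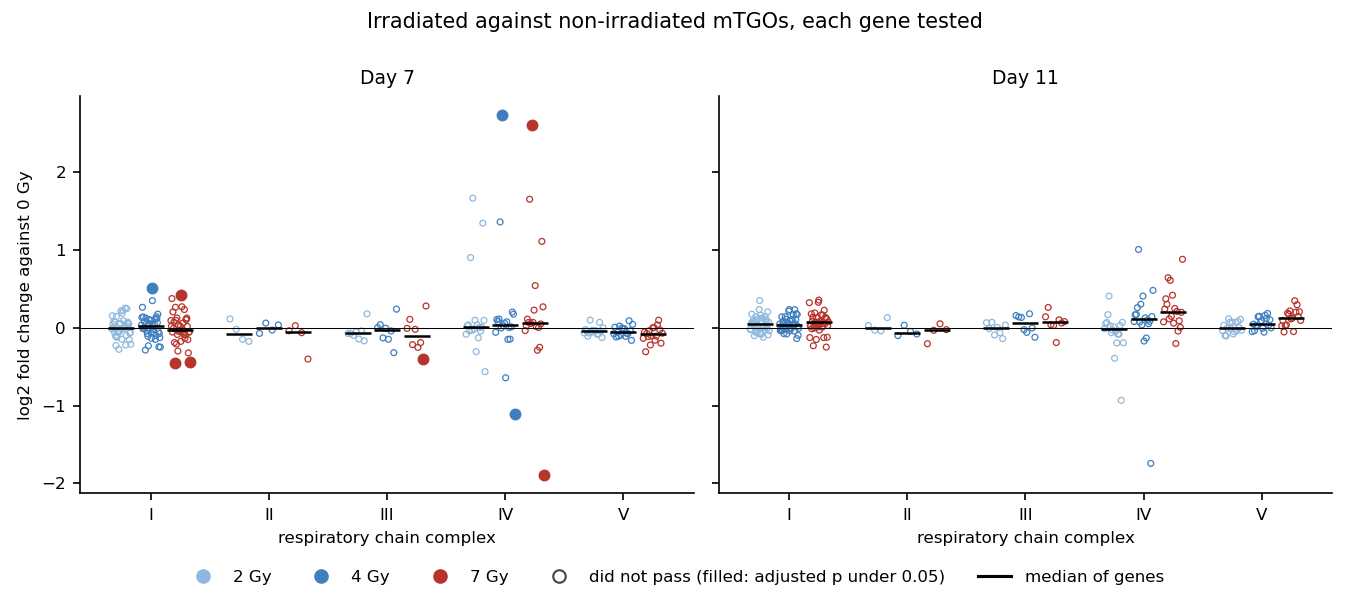
Log2 fold change of each tested gene against 0 Gy (y axis) at day 7 and day 11, by complex (x axis) and dose (colour). Filled points passed at an adjusted p under 0.05, open points did not, and black lines are medians. At day 7 the 9 filled points belong to 6 genes, and no point is filled at day 11.

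Among nuclear respiratory chain genes with a mean of 10 CPM or more, Ndufa4l2 had the largest change at day 7 after 4 Gy and after 7 Gy. It stood there at 432, 552 and 513 CPM at 0 Gy, 315, 367 and 350 CPM after 2 Gy, 196, 262 and 262 CPM after 4 Gy, and 123, 137 and 146 CPM after 7 Gy. The 4 doses did not overlap, and each higher dose was lower. The log2 fold change against 0 Gy was -1.10 after 4 Gy (standard error 0.13, adjusted p = 0.000551) and -1.89 after 7 Gy (standard error 0.13, adjusted p = 2.54e-06). After 2 Gy it was -0.56, with an adjusted p of 0.169 (edgeR) and of 0.00269 with the culture as a replicate block. Ndufa4 stood at 540, 649 and 558 CPM after 7 Gy, above its 3 libraries at 0 Gy, with 0.27 on the log2 scale (adjusted p = 0.103, and 0.0186 with the block).

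Cox6b2 was called higher at day 7 after 4 Gy and 7 Gy, with 3.16, 4.14 and 3.65 CPM after 2 Gy, 9.33, 9.38 and 5.43 CPM after 4 Gy and 6.52, 10.8 and 3.99 CPM after 7 Gy, against 0.782, 1.33 and 1.29 CPM at 0 Gy. All irradiated libraries lay above all 0 Gy libraries, and the 4 Gy and 7 Gy groups overlapped. Its log2 fold changes were 2.74 after 4 Gy (adjusted p = 0.00355) and 2.61 after 7 Gy (standard error 0.42, adjusted p = 0.00199), from counts near the limit of detection at 0 Gy. Ndufb6, a complex I subunit gene, was higher by 0.50 after 4 Gy (adjusted p = 0.0388) and 0.42 after 7 Gy (adjusted p = 0.0358), at 75.2, 72.5 and 63.8 CPM at 0 Gy and 94.5, 108 and 82.9 CPM after 7 Gy. The call after 7 Gy was lost in 5 of 6 fits that left out 1 library, each of them but the one without mTG14 at 7 Gy. The call after 4 Gy was lost in all 6 such fits, with adjusted p from 0.0750 to 0.144, and both calls were lost with all 27 libraries in 1 fit (adjusted p = 0.0552 after 4 Gy and 0.0557 after 7 Gy).

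The other 3 lower genes after 7 Gy at day 7 fell by similar amounts. Ndufa6, which rose with the days, went from 156, 163 and 168 CPM to 119, 121 and 119 CPM (-0.45, standard error 0.09, adjusted p = 0.00885), back to its range at day 5. Ndufv3 went from 150, 140 and 143 CPM to 112, 109 and 100 CPM (-0.44, standard error 0.08, adjusted p = 0.00558). Uqcrh went from 489, 492 and 487 CPM to 414, 448 and 469 CPM after 2 Gy, 424, 384 and 407 CPM after 4 Gy and 374, 363 and 382 CPM after 7 Gy (-0.40 after 7 Gy, standard error 0.08, adjusted p = 0.00838). After 4 Gy, Uqcrh passed with the replicate block alone (-0.32, adjusted p = 0.0180, against 0.0664 without it). No ATP synthase gene passed at day 7 without the block, and their log2 fold changes after 7 Gy ran from -0.31 to 0.10.

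**Figure D5:**
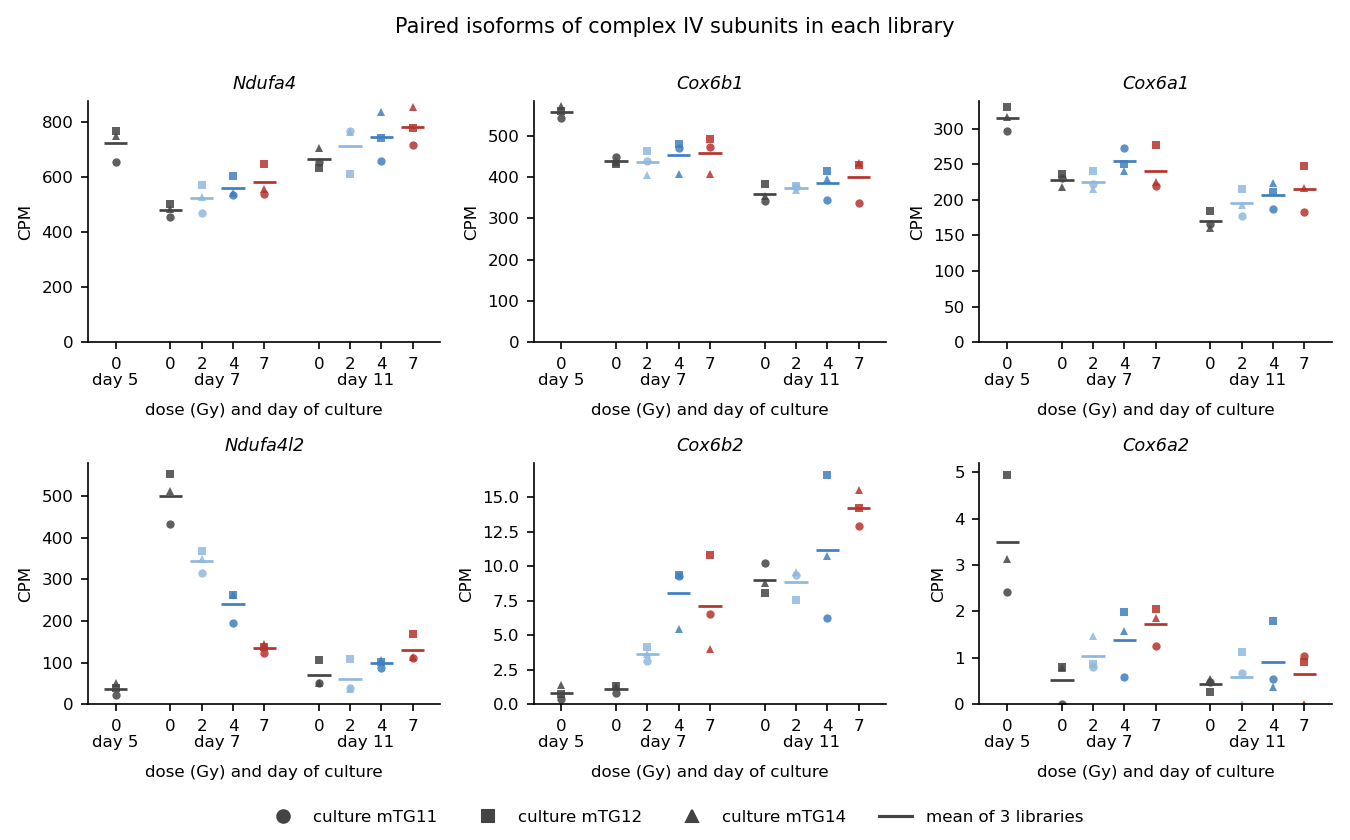
CPM of 3 pairs of complex IV subunit genes (y axis, from 0, on a scale of its own for each gene) in each library by dose in Gy and day of culture (x axis), with 1 point per library, the symbol giving the culture, and a line at the mean of 3 libraries. Ndufa4l2 peaks at day 7 without irradiation and steps down with dose there, Cox6b2 is above its day 7 controls after every dose, and Cox6a2 is highest at day 5.

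At day 11, 0 of 86 genes passed edgeR's test after any dose, against 0% of all genes after 2 Gy, 0.00502% after 4 Gy and 1.52% after 7 Gy. At an unadjusted p under 0.05 there were 0, 1 and 16 genes after 2, 4 and 7 Gy, and DESeq2 called 0 after each dose. How many of all genes lay under that unadjusted p was not counted. After 7 Gy, 69 of the 86 log2 fold changes were positive, with a median of 0.08 against 0.01 for all genes. The share of all genes with a positive change was not counted. In 21 genes every irradiated library was above every 0 Gy library (12.4% of all genes), while 4 lay wholly below (8.39%). With the culture as a replicate block, 5 genes were higher after 7 Gy, against 6.51% of all genes called in either direction. These were Cox5b (0.37, adjusted p = 0.0180 with the block), Atp5k (0.35), Cox6a1 (0.29), Uqcr11 (0.26) and Ndufa4l2 (0.92). Cox5b had 86.2, 73.2 and 73.1 CPM at 0 Gy and 94.5, 103 and 112 CPM after 7 Gy, and Atp5k had 143, 169 and 149 CPM and 181, 210 and 211 CPM, so that neither overlapped. Summed proliferation genes were higher in the same libraries, at 201, 187 and 207 CPM at 0 Gy and 440, 440 and 407 CPM after 7 Gy, with 11 of 12 called higher, and so were the summed muscle markers, with medians of 16.3 and 41.7 CPM and no overlap. Of 6 muscle markers tested, 0 were called without the block and 4 were called higher with it. Their part in these values was not tested.

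Between day 7 and day 11 after 7 Gy, 16 of 87 genes were lower and 4 higher, against 6.17% of all genes called lower, 6.15% called higher and 12.3% in either direction, with a median log2 fold change of -0.10. Cox5b (-0.56, adjusted p = 0.000173) and Atp5l (-0.48) had the smallest adjusted p among the lower genes, and Ndufa6 (0.64, adjusted p = 1.93e-05), Ndufs7 (0.45), Ndufa4 (0.43) and Cox6b2 (0.99) were the higher ones. The count rested on single libraries: it was 9 without mTG11 and 6 without mTG12 at day 7, and 8 without mTG11 and 8 without mTG14 at day 11. Ndufa4l2, at 123, 137 and 146 CPM at day 7 and 111, 168 and 113 CPM at day 11 after 7 Gy, overlapped between these days (-0.05).

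The response to 7 Gy was compared between the days in 1 fit of the 24 libraries of days 7 and 11. It differed for 5 of 87 genes, against 3.01% of all genes (2.2% more positive, 0.807% more negative), with 4 responses more positive at day 11 and 1 more negative. In the fit that blocks on culture 8 differed, against 5.26% of all genes, the added ones being Atp5g2, Atp5g3 and Atp5k, all more positive at day 11. All 17 genes of complex V had positive differences, from 0.13 to 0.49, and 67 of all 87 genes did, with a median of 0.15 against 0.02 for all genes tested. Positive differences were not counted over all genes. All 12 proliferation genes had responses called more positive at day 11. At day 7 after 7 Gy, 5 of these 12 were called lower, and their sum fell by 39.6%, with no overlap. Their part in the difference was not tested. Ndufa4l2 differed most, by 2.80 (standard error 0.42, adjusted p = 0.000217), being lower after 7 Gy at day 7 and at 111, 168 and 113 CPM against 50.6, 107 and 51.7 CPM at day 11. Ndufv3 (0.54), Uqcrh (0.49) and Atp5o (0.43) differed in the same direction, and Cox6b2 differed by -1.97, with an adjusted p of 0.0371. The count was 1 without mTG14 at day 7 or mTG11 at day 11 at 0 Gy, and 3 without mTG12 or mTG14 at day 7 after 7 Gy, mTG14 at day 11 at 0 Gy, or mTG12 at day 11 after 7 Gy.

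The mitochondrially encoded subunits responded to 7 Gy with other signs. At day 7, 2 of 13 were higher and 0 lower (mt-Cytb by 0.55 and mt-Nd4 by 0.46), against 6.95% of all genes called in either direction. At day 11, 0 were higher and 7 lower, against 1.52% of all genes, among them mt-Nd1 (-0.50), mt-Nd5 (-0.91), mt-Nd2 (-0.51) and mt-Atp6 (-0.49). With the culture as a replicate block, 9 of 13 were lower at day 11 (6.51% of all genes called in either direction), and 4 were higher at day 7 (11.4%). The difference between the days was called negative for 6 of 13 and positive for 0, against 3.01% of all genes. The ratio of the mitochondrially encoded to the nuclear sum was 1.29, 1.23 and 1.33 at day 11 without irradiation and 0.900, 0.851 and 0.937 after 7 Gy, which did not overlap, and at day 7 it was 0.902 ± 0.021 (SD, n = 3) without irradiation and 1.14 ± 0.15 after 7 Gy. The lower level at day 11 was not particular to 7 Gy. The mitochondrially encoded sum was lower by 14.8% after 2 Gy, 12.2% after 4 Gy and 23.9% after 7 Gy, each without overlap. After 2 and 4 Gy, edgeR called 0 of 13 at day 11, with 10 and 7 at an unadjusted p under 0.05. The block called 0 and 2 lower.

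Of the other lists, the tricarboxylic acid cycle genes had 0 of 17 called after 7 Gy at either day with edgeR, with 2 at an unadjusted p under 0.05 at day 7 and 0 at day 11. After 7 Gy at day 7, 4 of 51 assembly factors were called, against 6.95% of all genes: Sco2 (1.06), Sdhaf1 (0.59) and Cox11 (0.53) higher and Uqcc2 (-0.40) lower. At day 11, 0 of 51 were called, against 1.52% of all genes, with 7 at an unadjusted p under 0.05. Shares of all genes at that unadjusted p were not counted. At day 7, 1 of 12 transcriptional regulators and 1 of 13 respiratory chain genes that the symbols leave out were called. For the difference between the days each of these 2 lists also had 1 call, against 3.01% of all genes. Ppargc1b, a coactivator of genes for mitochondria, was lower after 7 Gy at day 7, at 11.8, 13.4 and 13.5 CPM at 0 Gy and 4.86, 5.78 and 7.57 CPM after 7 Gy (-1.13, standard error 0.24, adjusted p = 0.0114), and its response differed between the days by 1.29 (adjusted p = 0.0208). Higd1a, a hypoxia-inducible gene whose protein binds complexes III and IV, had 152, 172 and 166 CPM at 0 Gy and 102, 123 and 99.0 CPM after 7 Gy at day 7 (-0.61, standard error 0.12, adjusted p = 0.00667), and its response differed by 0.88 between the days (adjusted p = 0.00216). At day 11 neither passed after 7 Gy.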

How the data were processed

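The members and gene lists were chosen with earlier results of these data known. The authors prepared libraries with Smart3SEQ, a protocol that reads the 3′ ends of polyadenylated transcripts, and deposited unnormalized estimated counts for each gene symbol. The submitters' processing notes name STAR, edgeR and GRCm39, and the counting tool is not given in the sources used here. Of the nonzero values, 56.3% were whole numbers, so genes with near-identical copies or overlapping neighbours may share reads: of the 88 members, 57 have a gene on the opposite strand over them. The design had assumed whole counts, and the estimated counts were rounded for the tests. CPM used the library totals alone.

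Tests used edgeR 4.0.16 (R 4.3.3) with TMM scaling on genes that had 10 or more counts over the libraries fitted. Calls came from the quasi-likelihood test at a Benjamini-Hochberg adjusted p under 0.05. The days at 0 Gy were fitted together (9 libraries), the doses within each day (12) and the difference in response over days 7 and 11 (24). DESeq2 1.42.0 was an alternative, and the fits were tested on simulated data. In all 9 same-culture pairs at 0 Gy the deviations from the group means correlated across genes (0.122 to 0.304), as they did in every pair of the other fits, so the culture names of the columns pair the libraries. The smallest chi-square per degree of freedom over 27 replicate pairs was 3.63, so no library was counted as a repeat. The series design names 4 mice, and 3 cultures are analysed here. The main fits hold no term for the culture, so they leave the pairing out. Their p-values set a change against a spread that includes the differences between cultures. The fits with the culture as a replicate block take these differences out. No source used here ties each culture to a mouse, so both kinds of p-value rest on these cultures.

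Named were the 5 largest rises and 5 largest falls among members called with a mean of 10 CPM or more in 4 comparisons, the 5 members with the most counts, paired isoforms, catalytic subunits, Atpif1, and up to 4 genes per list with the smallest adjusted p. Values of some single genes are not reported here. Further genes were named after their values were seen where a count was small. Coordinates are from GENCODE vM39 (GRCm39), in which 85 of the 88 members were found, 13 of them by a RefSeq synonym. Promoter windows of RefSeq are of build GRCm38.p6, and no coordinates were converted between builds.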

Additional observations from a re-analysis of the deposited data

Results flagged for a closer look

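For 5 genes, day 7 and day 11 organoids responded unequally to 7 Gy by the test of the difference itself (edgeR, adjusted p under 0.05). The difference in log2 fold change was 2.80 for Ndufa4l2, 0.54 for Ndufv3, 0.49 for Uqcrh, 0.43 for Atp5o and -1.97 for Cox6b2. For Ndufa4l2 the 0 Gy groups differ widely between the days, with 432 to 552 CPM at day 7 and 50.6 to 107 CPM at day 11, and the call held in every alternative. For Ndufv3, Uqcrh and Atp5o the call was lost in 5 alternatives each, and for Cox6b2 in 9 of the 12 fits that left out 1 library. With groups of 3 libraries, dependence on single libraries was checked through the fits that left out 1 library at a time.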

How the results depend on the processing

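Of 107 calls of named genes, 0 reversed direction under an alternative. Leaving out each library in turn gave 57 to 61 calls between days 5 and 11, 32 to 41 between days 7 and 11, 23 to 31 between days 5 and 7, 2 after 4 Gy and 5 to 6 after 7 Gy at day 7, 6 to 15 for day 11 against day 7 after 7 Gy, 1 to 6 for the difference in response, and 0 after 2 Gy at day 7 and after each dose at day 11. With the culture as a replicate block the counts were 1 after 2 Gy and 10 after 7 Gy at day 7, 5 after 7 Gy at day 11 and 8 for the difference in response, and every other count stayed within 1.5 times its value without the block. The block also added Ndufb9 and Uqcrb between days 7 and 11, and Atp5g1, Cox4i1 and Ndufa8 between these days after 7 Gy. Without a filter on low counts there were 2 calls after 2 Gy at day 7, 1 after 4 Gy and 1 after 7 Gy at day 11, 10 for day 11 against day 7 after 7 Gy and 2 for the difference in response. DESeq2 gave 1 call after 2 Gy at day 7. With all 27 libraries in 1 fit there was 1 call after 4 Gy at day 7 and 1 after 7 Gy at day 11. The cause was not tested. Without TMM factors the median of all genes moved from 0.06 to -0.08 for day 11 against day 5, where 66 genes were lower and 5 higher, and from 0.04 to -0.11 for day 7 against day 5, where 50 were lower and 2 higher. Of these 107 calls, 72 held in every alternative, 32 were lost in at least 1 fit without 1 library, 15 without a filter, 7 without TMM factors and 5 with DESeq2. Depth limits Cox6a2, Cox8b and Cox4i2, which are near or under 3 counts in many libraries, and Cox6b2 in the 6 libraries of days 5 and 7 at 0 Gy, with 1 to 5 counts.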
